A study of Mus musculus with 2 samples.

Results

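The 6 genes of actin (Acta1, Actc1, Acta2, Actg2, Actb and Actg1), the 2 genes of cofilin (Cfl1 and Cfl2) and the gene of profilin 1 (Pfn1) are described here in the gastrocnemius, a fast calf muscle of the mouse. Members were taken by gene name from both long-read count tables: 9 of the 15622 annotated genes with reads in either library, with 161 of 69762 transcript models in replicate 1 and 168 of 65515 in replicate 2. A transcript model is the exon chain to which a long read is assigned. The tissue came from male B6CASTF1/J mice, an F1 cross of inbred strains, aged 25 days. The 2 biological replicates form 1 group, 2 µg of total RNA went into each library, and the labels name separate animals under 1 donor record. There is therefore no control and no contrast of conditions, and each difference given below is between 2 libraries.

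Actin is the globular protein that polymerises into the thin filaments of the sarcomere and into the cortical filaments of all cells. Skeletal and cardiac alpha-actin build thin filaments in striated muscle, the smooth muscle actins serve contraction of vessels and hollow organs, and beta- and gamma-actin form the cytoplasmic network. Cofilin binds aged actin subunits and severs filaments, and profilin binds monomers, exchanges their nucleotide and feeds them to growing barbed ends.

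The sequences of the alternative exons and splice sites on which the isoform results turn are shown first, 5′ to 3′ in the direction of the gene, from the GENCODE M21 transcripts on mm10. Each cytoplasmic actin gene holds an extra exon inside the intron that follows the first 363 coding bases. The Actb exon lies at chr5:142905088-142905150 on the minus strand and is 63 nt long, and the Actg1 exon lies at chr11:120347492-120347536 on the minus strand and is 45 nt long. Capitals mark the first stop codon in the reading frame of the upstream exons, at position 13 of the Actb exon and at position 34 of the Actg1 exon, counted from 1 at the 5′ end of the exon.
Actb extra exon: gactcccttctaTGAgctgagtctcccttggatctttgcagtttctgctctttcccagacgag
Actg1 extra exon: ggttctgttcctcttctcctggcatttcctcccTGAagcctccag
Cfl2 uses 3 annotated donor sites at the end of its second exon. Each line gives the last 9 exonic and the first 9 intronic bases, with the intronic GT in capitals; the sites end an exon of 308, 165 and 54 nt in that order, at chr12:54861517-54861534, chr12:54861660-54861677 and chr12:54861771-54861788 on the minus strand.
Cfl2-201 donor: tatattctgGTgtgtaaa
Cfl2-206 donor: cagatcttgGTgggtgac
Cfl2-203 donor: gatatgaaaGTaagaaaa
The 165-nt and 54-nt forms drop 143 and 254 coding bases, neither of which is a multiple of 3.

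The libraries held 1215785 and 1549606 reads in annotated genes, and the members took 88566 of them (7.28%) in replicate 1 and 104355 (6.73%) in replicate 2. Levels are CPM, the reads of a gene of all model classes per 1000000 reads in annotated genes, with spike-in RNA left out; because a long read is counted once whatever its length, no division by length was made. The limit that 0 reads allow was 2.47 CPM in replicate 1 and, at the greater depth of replicate 2, 1.94 CPM. Incomplete splice matches hold only part of an annotated intron chain, and genomic reads overlap a gene but were placed in none of the other classes. Together they made up 11.6% of all gene reads in replicate 1 and 22.5% in replicate 2. In the members no genomic read ran unspliced across an intron of the annotated transcript with most reads. All 5 skeletal fibre markers were detected, with a summed 102243 and 84937 CPM; Ckm, muscle creatine kinase, was level (68718 and 69403 CPM), Myh4, Myh1 and Pygm were lower in replicate 2 and Tnnt3 was higher. Fibroblast markers (4 of 4 detected in each library) had a sum of 4118 CPM in replicate 1 but 705 CPM in replicate 2. The fall lay mainly in Col1a1 (2448 and 279 CPM) and Col3a1 (1387 and 237). Dcn had 280 and 184 CPM, and Pdgfra, on 5 and 7 reads, went the other way (4.11 and 4.52). Intervals on shares and levels are exact 95% intervals that cover counting error only.

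**Figure D1:**
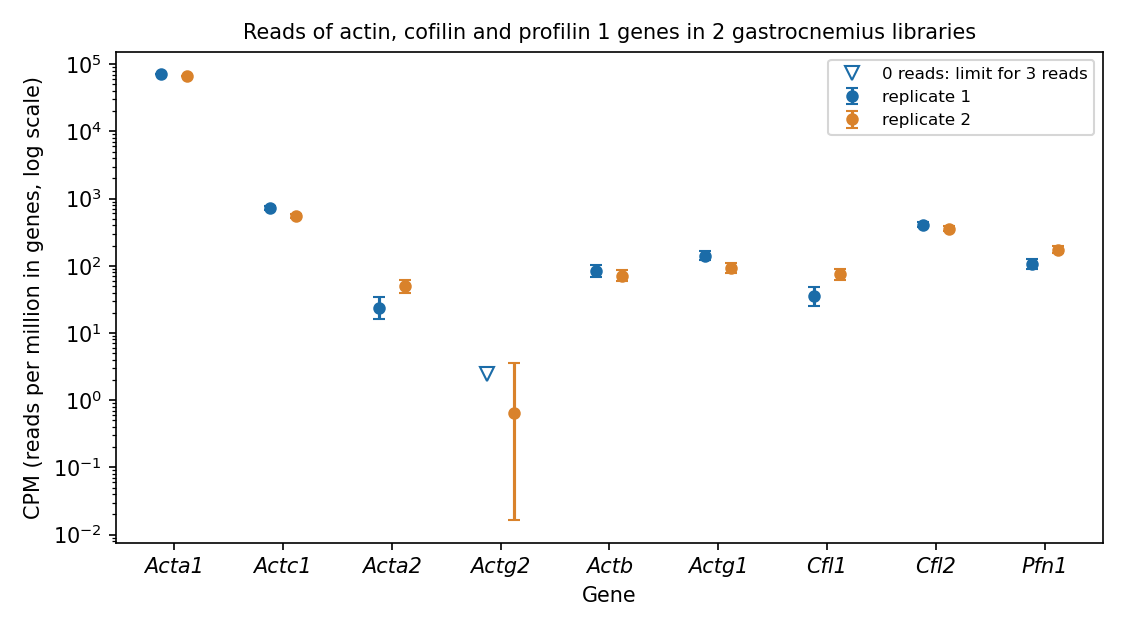
Level of each gene in CPM (log axis) in replicate 1 (blue) and replicate 2 (orange), with exact 95% Poisson intervals from the reads; the open triangle marks the 2.47 CPM that 0 reads of Actg2 allow. Acta1 stands at 71337 and 65981 CPM, Actc1 and Cfl2 lie between 356 and 714 CPM, and the other genes at 173 CPM or below.

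Skeletal alpha-actin carried nearly all actin reads of the muscle. Acta1 (chr8:123891769-123894751, minus strand) had 86730 reads in replicate 1 and 102245 in replicate 2, levels of 71337 and 65981 CPM, and its mean level was number 3 among all genes. Both libraries were high and close to each other, and no other member came near this level. Actc1 (chr2:114047282-114053548, minus strand), the alpha-actin of the adult heart that skeletal muscle also uses early in development, had 868 and 843 reads, or 714 and 544 CPM. It was the second most abundant of the 9 genes in each library and was number 158 among all genes, at 629 ± 120 CPM (SD, n = 2). Actc1 reads were 0.991% of the striated alpha-actin reads in replicate 1 (95% Clopper-Pearson interval 0.926 to 1.06) and 0.818% in replicate 2 (0.764 to 0.875), a mean of 0.904% ± 0.122 (SD, n = 2). Acta1 thus had 99.9 and 121 times the reads of Actc1. Genes that mark heart muscle were at or near 0 beside it: Myh6, the alpha myosin heavy chain of the heart, had 4 reads in replicate 1 and 2 in replicate 2, Tnni3, cardiac troponin I, had 1 and 0, and Nppa and Myl7 had none.

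Acta1 and Actc1 are closely similar, with 86.3% identical bases over 1131 coding bases (stop codon left out). Among the 6 actins the identity of the coding bases ran from 81.5% (Acta2 against Actg1) to 88.6% (Actb against Actg1). Copies were searched for among annotated pseudogenes alone, and each pseudogene was set beside the member that it matched best. Weaker matches to other members were not examined. None had its best match in the coding bases of Acta1, Actc1, Acta2 or Actg2 at 90% identity or more over at least 50% of the length. Actb had 1 such copy (Gm15725), with 6 reads in replicate 1 and 1 in replicate 2, so reads of Actb and this copy may be split by the assignment. Actg1 had 9 copies and Cfl1 had 3, and none of these had a read.

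The stretches upstream of both striated actin genes are shown because serum response factor, which binds the CArG box, is known to drive muscle actin genes. RefSeq sequences on GRCm38.p6 matched 7 of the 9 genes. The 250 bases before the RefSeq start are given with CArG boxes and CArG boxes with 1 C or G in the core in capitals, as well as TATAAA; the last 12 bases before the Actc1 start lie inside the first exon of Actc1-201 in GENCODE. They lie at chr8:123894776-123895025 (Acta1) and chr2:114052876-114053125 (Actc1), both on the minus strand.
Acta1 upstream: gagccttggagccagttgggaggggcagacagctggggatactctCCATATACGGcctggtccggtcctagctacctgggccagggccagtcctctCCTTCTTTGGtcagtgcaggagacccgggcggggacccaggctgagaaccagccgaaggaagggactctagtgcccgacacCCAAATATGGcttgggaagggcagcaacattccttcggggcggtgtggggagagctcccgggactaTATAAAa
Actc1 upstream: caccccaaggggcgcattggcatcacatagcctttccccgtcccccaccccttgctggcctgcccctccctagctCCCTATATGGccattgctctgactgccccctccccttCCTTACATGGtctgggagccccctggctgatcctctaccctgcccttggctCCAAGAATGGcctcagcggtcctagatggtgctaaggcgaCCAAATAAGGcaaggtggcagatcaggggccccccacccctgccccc
A full CArG box began 73 bases before the start of Acta1 and 47 bases before that of Actc1. The RefSeq start of Acta1 lies upstream of its GENCODE start (chr8:123894751), so these distances are not counted from like starts. Acta1 held 2 further boxes with 1 C or G in the core and Actc1 held 3; Acta2 held 2 of that kind and no full box, and Actg1 held 1 full box. Neither form was found for Cfl1, Cfl2 or Pfn1. Searched on both strands (the motif is its own reverse complement) over all 32817 RefSeq windows of 300 bases, a full box was present in 1.63% and either form in 9.99%. TATAAA on the strand of the gene was present in 8.32% of windows. It began 7 bases before the start of Acta1 and, beyond the bases printed, at base 34 after the start of Actc1. These matches describe letters in a window and not bound sites.

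The smooth muscle actins were low. Acta2 (chr19:34241090-34255590, minus strand), the alpha-actin of vascular smooth muscle, had 29 reads in replicate 1 and 77 in replicate 2, or 23.9 and 49.7 CPM. Actg2 (chr6:83512905-83536265, minus strand), the gamma-actin of visceral smooth muscle, had 0 reads and 1 read. Replicate 2 was the higher library for both, and the level of Actg2 lay under the limit that a count of 0 allows. Other smooth muscle markers did not all follow Acta2: Myh11, the smooth muscle heavy chain, had 13 and 3 reads, Tagln (transgelin) 15 and 26, and Cnn1 (calponin 1) 1 and 4. The 6 smooth muscle markers summed to 3235 and 3403 CPM, of which Des (desmin, also made by muscle fibres) gave 3187 and 3332. The 2 pericyte markers summed to 137 and 56.1 CPM. The part of these cells in the difference of Acta2 was not tested, and in bulk tissue fewer cells of a type and less RNA per cell cannot be told apart.

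By reads as assigned, the cytoplasmic actins stood at 71.0 to 141 CPM over both libraries, Actg1 above Actb. Actb (chr5:142903115-142906754, minus strand), beta-actin, had 101 and 110 reads, or 83.1 and 71.0 CPM. Actg1 (chr11:120345690-120348542, minus strand), gamma-actin, had 171 and 144 reads, or 141 and 92.9 CPM. Actg1 was above Actb in each and held 62.9% of their joint reads in replicate 1 (56.8 to 68.6) and 56.7% in replicate 2 (50.4 to 62.9), a mean of 59.8% ± 4.37 (SD, n = 2). The intervals of the libraries overlap. Over annotated transcripts alone the mean share of Actg1 was 65.3%. These counts leave out 62 and 342 single-exon reads on the strand opposite to Actb. Actg1 had no such reads. Whether the assignment used strand is not stated, so the order and the share hold only for reads as assigned.

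Of the cofilins, the muscle form prevailed. Cfl2 (chr12:54858809-54862877, minus strand), the cofilin of skeletal and cardiac muscle, had 494 and 552 reads, or 406 and 356 CPM. Cfl1 (chr19:5490455-5495201, plus strand), the cofilin of most other cells, had 43 and 115 reads, or 35.4 and 74.2 CPM. Cfl2 held 92.0% of cofilin reads in replicate 1 (89.4 to 94.1) and 82.8% in replicate 2 (79.7 to 85.6), a mean of 87.4% ± 6.53 (SD, n = 2). It was the larger in both libraries, by 11.5 times in replicate 1 and 4.80 times in replicate 2, and the intervals of the share do not overlap. The coding bases of the cofilins, 498 in each, are 71.5% identical.

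Pfn1 (chr11:70651850-70654644, minus strand), the general profilin, had 130 and 268 reads, or 107 and 173 CPM. Its paralogue Pfn2 had 176 and 127 CPM. Pfn2 was the higher of the 2 in replicate 1 and Pfn1 in replicate 2, so their order was not fixed by these libraries.

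By mean level the order of the 9 genes was Acta1, Actc1, Cfl2 (381 ± 35.4 CPM), Pfn1 (140 ± 46.7), Actg1 (117 ± 33.7), Actb (77.0 ± 8.55), Cfl1 (54.8 ± 27.5), Acta2 (36.8 ± 18.3) and Actg2 (0.323 ± 0.456; SD, n = 2 throughout). The first 3 were in this order in both libraries, with ranges that do not overlap. Pfn1 and Actg1 changed places between the libraries, as did Actb and Cfl1, and the ranges of Cfl1 and Acta2 overlap.

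The libraries were then compared gene by gene. A two-sided Fisher exact test set the reads of a gene against the remaining gene reads, over the 8692 genes with 10 or more reads in all, with p-values adjusted by Benjamini-Hochberg and called at 0.05; it compares these 2 libraries and takes in counting error alone. Of the 9 members 8 entered the test, all but Actg2, and 6 passed the threshold, beside 43.3% of all genes tested. The members that passed were 3 higher in replicate 2 (17% of all genes) and 3 lower (26.3%). Many genes differed between these libraries, and the members' count says nothing particular to them. With edgeR's exact test, which adds an assumed spread between animals, none of the 8 passed at a coefficient of variation of 0.2 (2 at an unadjusted p under 0.05), where 15.5% of all genes did, or at 0.4 (0 unadjusted), where 0.092% did.

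Higher in replicate 2 were Acta2, Cfl1 and Pfn1. For Acta2, whose 23.9 and 49.7 CPM came from few reads, the log2 ratio of replicate 2 over replicate 1 on the CPM + 1 scale was 1.03 ± 0.31 (counting SE; Fisher exact with Benjamini-Hochberg, adjusted p = 0.00213). For Cfl1 it was 1.05 ± 0.26 (Fisher exact, adjusted p = 9.83e-05), and for Pfn1 0.69 ± 0.15 (Fisher exact, adjusted p = 2.98e-05). The CPM ratio was close to 2 for both of the first (2.08 for Acta2 and 2.10 for Cfl1) and 1.62 for Pfn1. Cfl1 did not pass over annotated transcripts alone (log2 0.66, Fisher exact, adjusted p = 0.0531).

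Lower in replicate 2 were Acta1, Actc1 and Actg1, but none of these calls kept both its direction and its threshold under other scalings. The log2 ratio was -0.11 ± 0.01 for Acta1 (Fisher exact, adjusted p = 1.03e-66), -0.39 ± 0.07 for Actc1 (adjusted p = 1.69e-07) and -0.59 ± 0.16 for Actg1 (adjusted p = 0.00112). The median log2 ratio of all 8692 genes was -0.27, and that of the 8 members -0.15, so Acta1 lay above the median gene and Actc1 and Actg1 below it. Scaling by TMM or by DESeq2 size factors moved the median ratio of all genes up by 0.25 and 0.31 on the log2 scale. Then 4 members were called by either scaling, beside 40.9% and 39% of all genes, and all were higher in replicate 2: Acta2, Cfl1, Pfn1 and Acta1, whose ratio turned to 0.18 and 0.24. Actc1 had -0.10 (Fisher exact, adjusted p = 0.259) by TMM and Actg1 -0.30 (adjusted p = 0.126).

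Actb (log2 -0.22 ± 0.20, Fisher exact, adjusted p = 0.389) and Cfl2 (-0.19 ± 0.09, adjusted p = 0.0731) did not pass, and by TMM and DESeq2 size factors their ratios turned to 0.06 and 0.12 for Actb and to 0.10 and 0.16 for Cfl2. Both passed over annotated transcripts alone, where 7 members were called beside 51% of all genes, with -0.97 for Actb (Fisher exact, adjusted p = 0.00103) and -0.31 for Cfl2 (adjusted p = 0.00401). The fibroblast, pericyte and endothelial marker sums were also lower in replicate 2 (endothelial: 26.3 against 14.2 CPM), though the fibroblast marker Pdgfra was not. The part of these cells in the difference of Actg1 was not tested.

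Which part of each gene the reads covered also differed between the libraries. The share of incomplete and genomic reads was 4.72% in replicate 1 and 7.22% in replicate 2 for Acta1, 12.8% and 23.6% for Actc1, 9.90% and 39.1% for Actb, and 15.2% and 32.6% for Actg1. For Cfl1 it was 25.6% and 39.1%, for Cfl2 3.44% and 6.88%, for Pfn1 1.54% and 7.09%, and for Acta2 3.45% and 14.3%. Replicate 2 was the higher library in all 8 genes. By the two-sided Fisher exact test over 3829 genes with 20 or more reads in each library, with Benjamini-Hochberg adjustment, 6 of the 8 passed, all with the higher share in replicate 2; over all genes 35.5% passed, 35.1% in this direction and 0.444% in the other. Acta2 (adjusted p = 0.328, Fisher exact) and Cfl1 (adjusted p = 0.275) did not pass. The difference for Actb was 29.2 points, for Actc1 10.8 and for Acta1 2.50, beside a median of 7.78 points over all genes tested.

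**Figure D2:**
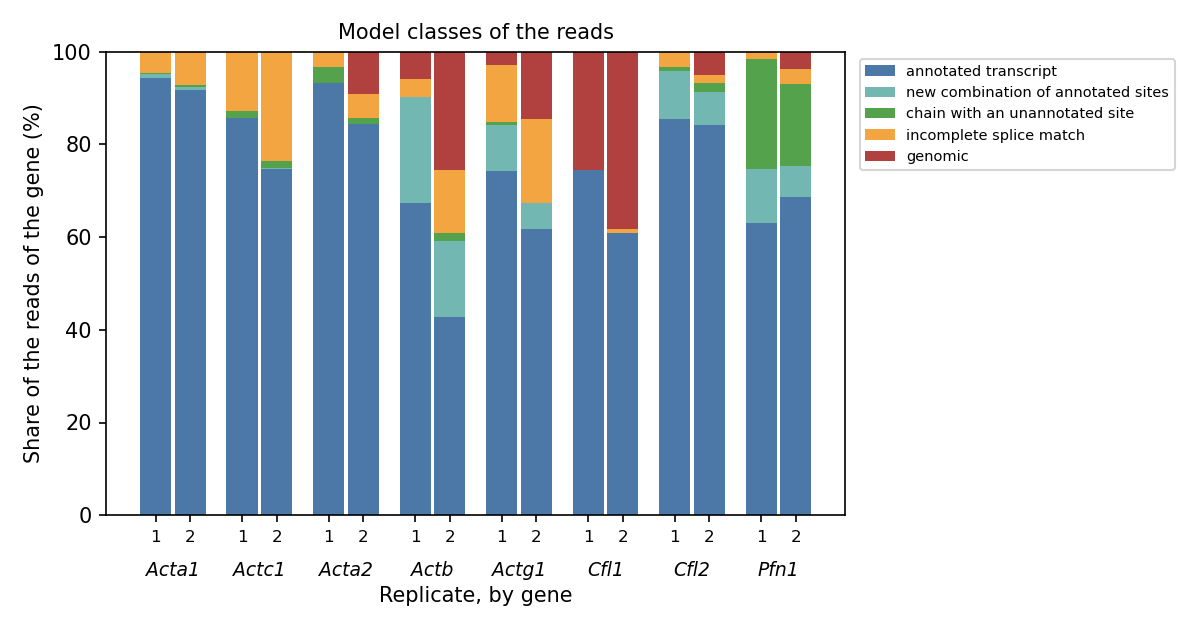
Share of the reads of each gene (%) in the 5 model classes, with replicate 1 and replicate 2 side by side; Actg2, with 1 read, is left out. Annotated transcripts take 94.2% and 91.7% of Acta1 reads but 67.3% and 42.7% of Actb reads, and genomic reads take 25.6% and 38.3% of Cfl1 reads.

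The class label given to reads on the last exon alone differed between genes. In Acta1 and Actc1 no read was genomic, and reads on the last exon alone were classed as incomplete. Acta1 reads that held only the last exon numbered 734 (0.846%) in replicate 1 and 2543 (2.49%) in replicate 2, and those with only the last intron spliced out 529 (0.610%) and 1128 (1.10%). Reads that lacked only the first intron took a more even share, 1.09% and 1.06%. Most of the excess of replicate 2 in Acta1 thus lay in the shortest 3′ pieces. Actc1 was alike in this, with 17 (1.96%) and 62 (7.35%) reads on the last exon alone and 4.03% in each library lacking only the first intron. The first intron was spliced out in 94.4% and 91.9% of Acta1 reads and in 86.3% and 75.2% of Actc1 reads, the last in 99.1% and 97.5% and in 97.7% and 92.3%.

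**Figure D3:**
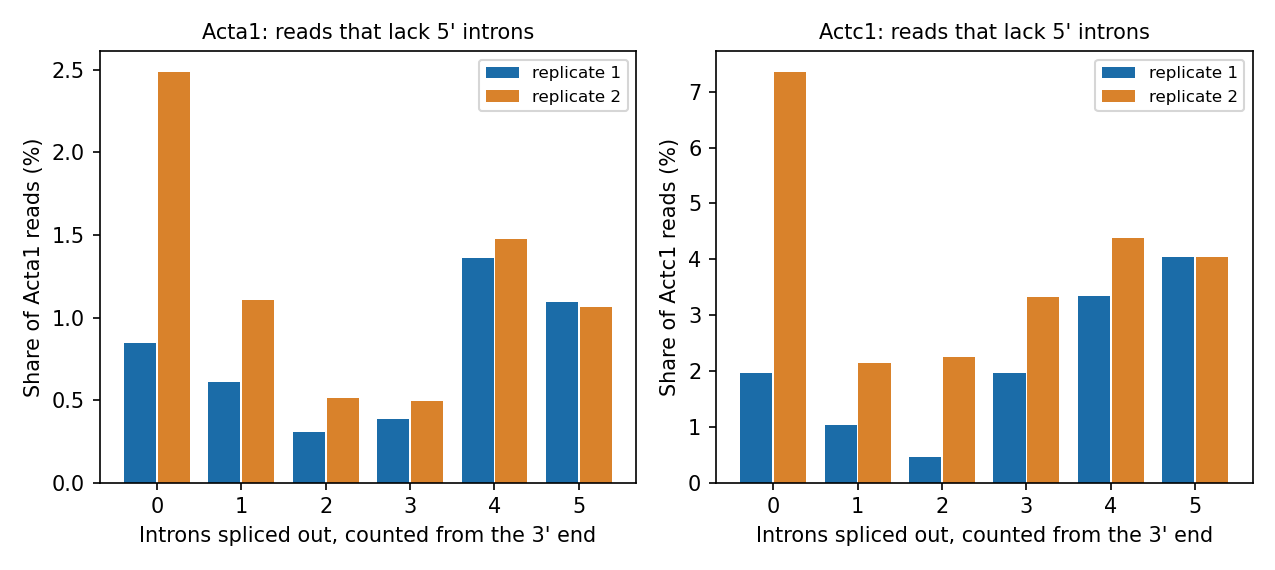
Share of the reads of Acta1 and Actc1 (%) whose introns are exactly the last 0 to 5 of the 6 introns of the main transcript, counted from the 3′ end, in replicate 1 (blue) and replicate 2 (orange). Reads on the last exon alone are 0.846% and 2.49% in Acta1 and 1.96% and 7.35% in Actc1, while reads that lack only the first intron are near equal.

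The other genes also had genomic reads, though incomplete reads outnumbered them in Actg1 in both libraries (21 against 5 and 26 against 21). All 11 such reads of Cfl1 in replicate 1 and 44 of 45 in replicate 2 were genomic, and the reads outside this class in both libraries followed 1 annotated transcript, Cfl1-202, in all 32 and all 70 complete reads. A complete read is one that is neither incomplete nor genomic. Actb had 6 genomic reads in replicate 1 and 28 in replicate 2, and Actg1 had 5 and 21. For Cfl1, Actb and Actg1 the genomic reads equalled in number the reads on the last exon alone. In Acta1 and Actc1 reads of that kind were classed as incomplete. Cfl2 had no genomic read in replicate 1 and 28 in replicate 2, but this contrast is one of labels. Its reads on the last exon alone numbered 10 (2.02%) and 28 (5.07%), and those of replicate 1 were classed as incomplete. For these genes, as for the actins of striated muscle, replicate 2 held more.

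Among complete reads the actins of muscle each used 1 annotated transcript. Acta1-201 held 98.9% and 98.8% of complete Acta1 reads, Actc1-201 98.2% and 97.8% of Actc1 and Acta2-201 96.4% and 98.5% of Acta2. The single Actg2 read was on Actg2-201. The other genes were split: Actb-201 held 74.7% and 70.1%, Actg1-202 52.4% and 60.8%, Cfl2-201 81.1% and 76.1%, and Pfn1-201 62.5% and 73.5%. Over all classes the shares of replicate 2 were lower still for Actb, at 42.7%.

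The split of both cytoplasmic actins came mainly from the extra exons shown above. In Actb 23 reads in replicate 1 and 17 in replicate 2 held the 63-nt exon, an inclusion of 25.0% (16.6 to 35.1) and 23.6% (14.4 to 35.1) of the reads spliced across that intron. In Actg1 54 and 31 reads held the 45-nt exon, an inclusion of 39.7% (31.4 to 48.4) and 33.7% (24.2 to 44.3). For each gene the intervals of the 2 libraries overlap. The 45-nt exon is part of Actg1-206, annotated as a target of nonsense-mediated decay, which held 34.5% and 29.9% of complete Actg1 reads. The 63-nt exon of Actb is annotated as an exon, but its whole chain, with 22 and 16 reads, is a combination that no annotated transcript has. Both exons have a length that is a multiple of 3 and carry the in-frame TGA printed in capitals above. A further Actg1 form, with 17 and 8 reads, began at the same acceptor and kept the intron between the 45-nt exon and the next one. The inclusion given above leaves this form out. Of all reads spliced from the upstream donor, 71 of 152 (46.7%) in replicate 1 and 39 of 100 (39.0%) in replicate 2 were joined to that acceptor.

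**Figure D4:**
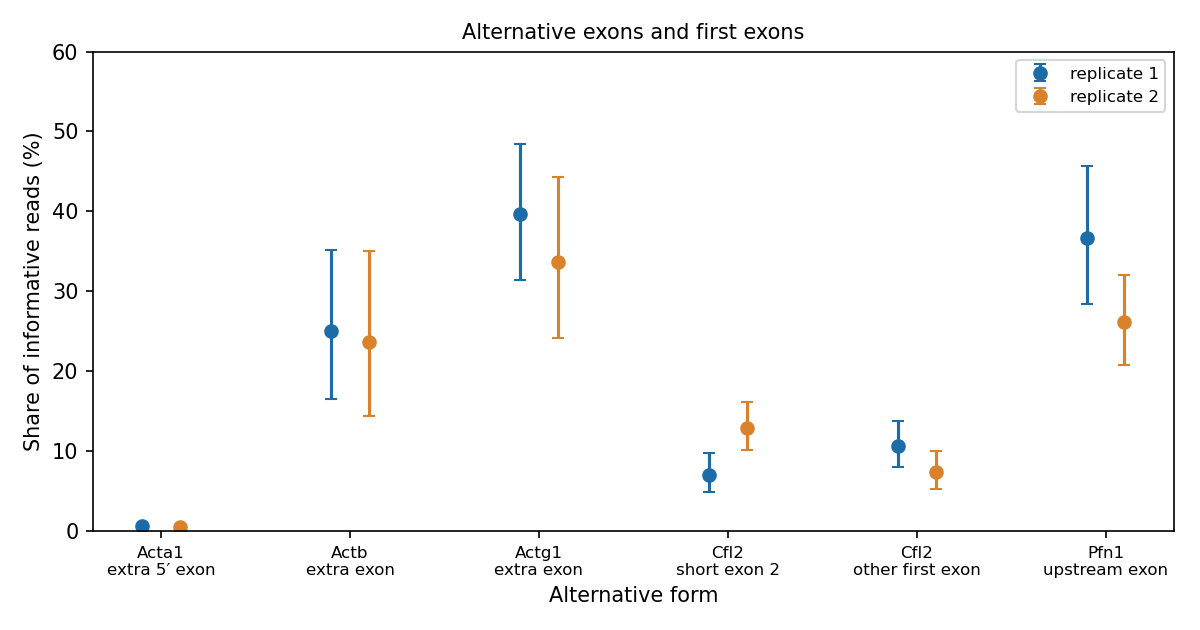
Share of informative reads (%) that hold each alternative form, with exact 95% Clopper-Pearson intervals, in replicate 1 (blue) and replicate 2 (orange). The Acta1 exon is under 1%, the Actb and Actg1 exons between 23.6% and 39.7%, the Cfl2 forms between 7.05% and 12.9%, and the upstream exon of Pfn1 at 36.7% and 26.1%.

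Acta1 also had an extra exon, of 90 nt (chr8:123894422-123894511) and outside the coding bases, between its first and second exons; it is annotated in Acta1-202. As an internal exon it was found in 517 and 535 reads, an inclusion of 0.626% (0.573 to 0.682) and 0.564% (0.517 to 0.614). The whole chain of those reads is a combination that no annotated transcript has. The junction from this exon to the second exon was in 577 and 592 reads, some of them without the junction to the first exon. In number the reads with this exon exceeded those of Actb in all, but they were a small share of Acta1.

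Cfl2 varied at its second exon and its first. The 54-nt form of exon 2, the donor printed for Cfl2-203, was spliced in 34 reads in replicate 1 and 67 in replicate 2, or 7.05% (4.93 to 9.72) and 12.9% (10.2 to 16.1) of the junctions at that acceptor. The 165-nt form of Cfl2-206 was in 4 and 8 reads, 0.830% and 1.54%. An unannotated donor, which ends an exon of 310 nt, was used in 1 and 5 reads, 0.207% and 0.965%. The 54-nt form was the more frequent in replicate 2, with intervals that do not overlap; this difference was not tested. Another first exon, whose donor lies 333 bases nearer to exon 2, was joined in 51 and 38 reads, 10.7% (8.06 to 13.8) and 7.38% (5.27 to 9.99), with intervals that overlap. Its full chain, with 46 and 33 reads, is in no annotated transcript.

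Pfn1 reads often began outside the gene. The first exon of Gm12319, a long intergenic noncoding gene on the same strand (exon at chr11:70656293-70656493, 201 nt), was carried by 47 Pfn1 reads in replicate 1 and 65 in replicate 2. This was 36.7% (28.4 to 45.7) and 26.1% (20.8 to 32.0) of complete Pfn1 reads, with intervals that overlap. Gm12319 itself, which ends 97 bp before Pfn1, was assigned no read in either library. The joined reads took 3 main forms, which entered an exon of 229, 548 or 191 nt ending at the Pfn1 first donor and had 17 and 30, 15 and 18, and 13 and 13 reads. The exon of 548 nt begins upstream of the annotated Pfn1 start, and the others begin within the first exon of Pfn1. That longest exon starts with the second exon of Gm12319 (chr11:70654741-70654896) and runs on unspliced into Pfn1. The junction of this form is thus the annotated intron of Gm12319, and its reads hold both exons of Gm12319.

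**Figure D5:**
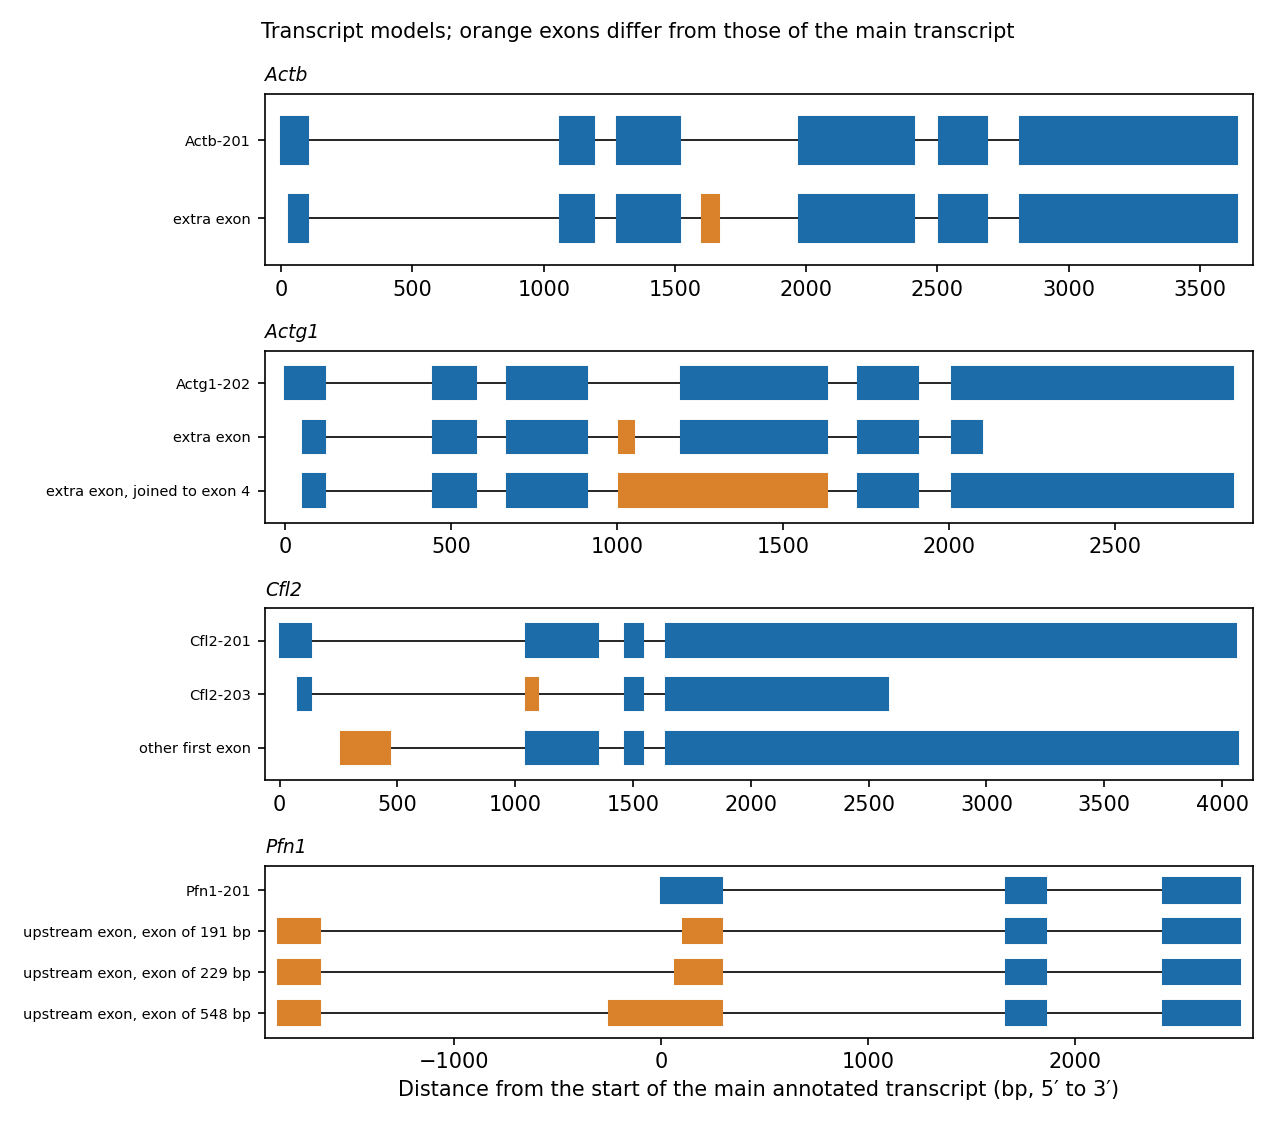
Exons (boxes) and introns (lines) of the main annotated transcript and of the alternative models of Actb, Actg1, Cfl2 and Pfn1, drawn to scale as distance in bp from the start of the main transcript. Orange exons differ from those of the main transcript: the 63-nt and 45-nt exons of the cytoplasmic actins, the 54-nt exon 2 and the other first exon of Cfl2, and the exon that begins 1849 bp before Pfn1.

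Introns were otherwise rarely kept. Over the 38 introns of the members that were informed by 20 or more reads in each library, the median retention was 0%. The highest were the second intron of Actb, kept in 3 of 95 reads (3.16%) in replicate 1 and 6 of 74 (8.11%) in replicate 2, the third intron of Actb (4.17% and 1.82%) and the second of Actg1 (4.61% and 2.04%). All of these belong to the cytoplasmic actins, and which library was higher differed between them.

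Unannotated chains of the members recurred between the libraries. Of the multi-exon chains with 2 or more reads, 39 of 45 in replicate 1 and 45 of 47 in replicate 2 were seen again in the other (mean 91.2%). The same share over the chains of all genes was not computed, so nothing particular to the members is read from it. Found in both with 5 or more reads in all were 35 chains, of which 27 belonged to Acta1 and 8 carried different class labels in the 2 libraries. Of the 21 Acta1 chains with a single changed intron, 17 moved 1 splice site alone, and 14 of these by 25 bases or less. The most frequent lengthened the second exon by 23 bases (80 and 75 reads), lengthened the first by 5 bases (36 and 165), lengthened the fourth by 4 bases (11 and 104) or shortened the second by 7 bases (41 and 44). The forms of 5 and 4 bases were several times more frequent in replicate 2, and those of 23 and 7 bases were alike. Actc1 had 1 recurring chain, and it too shortened the second exon by 7 bases (6 and 8 reads).

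Other genes of actin turnover were read from a list of 42 symbols, of which 40 were found under these names and 34 entered the library test. There 5 were higher in replicate 2 (17% of all genes tested), 12 lower (26.3%) and 17 did not pass, with a median log2 ratio of -0.34 beside -0.27 for all genes. By TMM 6 were higher and 6 lower, beside 40.9% of all genes called, and by DESeq2 size factors 7 and 5, beside 39%. These counts stand beside a background in which many genes were called, and nothing particular to the list is read from them. Gsn, gelsolin, which severs and caps filaments, had 1535 CPM in replicate 1 and 452 in replicate 2 (log2 -1.76, Fisher exact with Benjamini-Hochberg, adjusted p = 4.51e-189). Tmsb10, thymosin beta 10, which sequesters monomers, had 97.1 and 398 CPM (log2 2.03, Fisher exact, adjusted p = 8.12e-57). Both ratios are larger in size than that of any member, and they point in opposite directions. Pdlim7, a PDZ-LIM protein of the Z-disc, was higher at 475 and 747 CPM (log2 0.65), as was the pointed-end capping protein Tmod4 at 310 and 377 CPM (log2 0.28). Of the barbed-end capping subunits, Capza2 was lower at 563 and 426 CPM (log2 -0.40), and Capzb had 439 and 399 CPM (log2 -0.14) and did not pass. Mrtfa, the actin-regulated coactivator of serum response factor, had 18 reads in replicate 1 and 6 in replicate 2 (log2 -1.70, Fisher exact, adjusted p = 0.00963). Dstn, destrin, a relative of the cofilins, had 19.7 and 26.5 CPM and did not pass (adjusted p = 0.387, Fisher exact).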

How the data were processed

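The 2 libraries of gastrocnemius total RNA were sequenced in long reads. The deposited tables hold whole read counts per transcript model, not normalised; per the file headers they were made on mm10 with GENCODE M21, and per the tables the models carry TALON classes. For the aligner, the read filters and the use of strand, nothing is stated in the labels or headers read here. Each library has its own table and annotation. Total reads were 1292409 and 1703457, spike-in RNA included.

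Counts of all classes were summed per gene, and CPM used the reads in annotated genes. Exons and intron chains came from the deposited annotation of each library, and chains were matched by exact introns. Reads may be copies of 1 molecule where a library was amplified, so intervals (exact, 95%) and the limit of 3 counts for a count of 0 cover counting error only. No test reaches beyond these 2 libraries. Python 3.11.15, pandas 2.3.3, SciPy 1.17.1, Biopython 1.88 (identity), BLAST+ 2.17.0 (copies), edgeR 4.0.16 and DESeq2 1.42.0 (scaling and edgeR's exact test at a fixed coefficient of variation, as alternatives only) were used. Both tests across genes were tested on simulated data. The members, lists and tests were chosen with earlier results of these data known. Text names all members, list genes by level (6 highest) or log2 ratio (3 largest past the threshold with 20 or more reads), transcripts with 1% or more of the reads, and chains of 5 reads or more; Pfn2, Dstn and transcripts below 1% were named after their values were seen. Alternatives were other classes, read filters, scalings, pseudocounts and minimums, and leaving out each library. Markers of immune, erythroid and satellite cells were also summed (41.9 and 40.7, 322 and 507, and 26.3 and 19.4 CPM).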

Additional observations from a re-analysis of the deposited data

Results flagged for a closer look

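Reads on the strand opposite to a member lie outside the gene counts above, and some exceeded the 3 reads that a count of 0 allows. Opposite to Actb were 62 single-exon reads in replicate 1 and 342 in replicate 2, over the 3′ end of the gene, beside 101 and 110 reads of Actb itself; the ratio of opposite to sense reads was 0.614 and 3.11. Opposite to Actc1 were 6 and 41 reads, beside 868 and 843, and opposite to Cfl2 15 reads in replicate 2 beside 552, with 3 in replicate 1. Acta1, with 86730 and 102245 reads, had none in either library. The labels and headers do not state whether the assignment used strand, so reads of a gene and reads opposite to it cannot be told apart with certainty. The level of Actb, its order beside Actg1 and its ratio between the libraries therefore hold only for reads as assigned.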

How the results depend on the processing

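The summed level of the members, 70095 CPM, was 95533 over annotated transcripts alone and 79404 without incomplete and genomic models. The 6 members called became 0 with edgeR's exact test at a coefficient of variation of 0.2 (2 at an unadjusted p under 0.05; 15.5% of all genes called) and 0 at 0.4 (0 unadjusted; 0.092% of genes). The ratio of Acta1 turned to 0.039 without incomplete and genomic models, to 0.18 by TMM and to 0.24 by DESeq2 size factors. The Actg1 share of 59.8% was 65.3% over annotated transcripts alone. The median share of the main transcript, 88.0% of complete reads, was 71.1% over all classes. Recurrence of 91.2% was 65.3% for chains of 1 or more reads and 98.0% for those of 5 or more. Other counts and shares stayed within 1.5 times or 1 SD in 39 settings. Of the tested values of single genes over all settings, 81 kept direction and side of the threshold, 18 no longer passed and 4 newly passed. The remaining 7 changed sign: the 3 of Acta1, and Actb (0.064 by TMM, 0.122 by DESeq2 size factors) and Cfl2 (0.102 and 0.160), neither of which passed. Of the levels of single genes 6 moved by more than the spread between the libraries and 66 did not. The causes were not tested. Leaving out a library leaves the values of the other, given above. With 2 libraries such a value always lies within 1 SD of the mean, so these settings, counted among the 39 and the 66, could not move. A change of pseudocount leaves the p-value as it was, so those settings, counted among the 39 and the 81, could not change side of the threshold. With 2 libraries, no value here measures the spread between animals well, and Acta2, Cfl1 and Actb rest on few reads. No paired analysis was possible because the series holds 1 group.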
